A study of Homo sapiens with 6 samples.

Results

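The genes described here control or carry out the defence of the cell against oxidants: the regulators of the transcription factor NRF2, enzymes that NRF2 is known to induce, and the glutathione, thioredoxin, peroxide and iron handling genes around them. They are 39 genes, listed by symbol and matched to the symbol column of the deposited count table, out of 20532 genes in all. Each symbol matched 1 identifier, and all 39 passed the filter on low counts, which left 13710 genes for testing. The study measured RNA in MDA-MB-231 M3, which the labels describe as a bone-metastatic human breast cancer line and which derives from the triple-negative line MDA-MB-231. There were 3 control samples and 3 samples in which PRMT1, the main enzyme that places asymmetric dimethyl marks on arginine in proteins, was knocked down by small interfering RNA (siPRMT1). The labels call the controls untreated or control cells, so whether they were transfected was not given in the sources used here, nor was the time between transfection and RNA collection. Replicates are labelled biological, but no separate cultures or transfections are named, so the p-values cover only sample-to-sample spread and this could be technical.

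NRF2, encoded by NFE2L2, is held in the cytoplasm and passed to the proteasome by KEAP1. When oxidants or electrophiles modify KEAP1, NRF2 reaches the nucleus, pairs with small MAF proteins and binds antioxidant response elements near genes for glutathione synthesis, thioredoxin reduction and quinone reduction. Glutathione feeds GPX4, which reduces lipid peroxides, and free ferrous iron promotes the same peroxides, so that these genes together set how easily a cell dies by ferroptosis. Many breast cancer lines of mesenchymal type are known to be sensitive to that form of death.

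Total counts per library lay between 16968563 and 20545995. Transcripts of the mitochondrial genome made up 5.0% to 5.1% of each control library and 8.64% to 8.74% of each siPRMT1 library, and TMM factors were 1.12 in each control and 0.895 to 0.897 after knockdown. Both measures separated the groups, and their part in the changes below was not tested. PRMT1 was at 146 ± 2.93 CPM in the control samples and 11.9 ± 0.0607 CPM in the siPRMT1 samples (CPM, read counts scaled to the TMM-adjusted library size; mean ± SD, n = 3 each). The keratin genes KRT8 and KRT18, VIM and CD44 were abundant, the hormone receptor genes ESR1 and PGR did not reach the filter (TFF1, a gene known to respond to oestrogen, passed it and rose from 2.37 to 6.50 CPM), and neither did the leukocyte genes PTPRC and CD3E (CD14, CD68 and LYZ passed it, CD68 rising from 201 to 372 CPM). Of all tested genes, 89.3% had a Benjamini-Hochberg adjusted p under 0.05 (edgeR, quasi-likelihood). As shares of tested genes, 44.3% were higher and 45.0% lower after knockdown. A gene that passed is therefore ordinary in this comparison, and the size of a change says more than the call. Levels are relative to the rest of the library: without TMM factors, with library size as the only scaling, the all-gene median log2 fold change shifted by -0.317.

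Fold changes across all genes followed the base composition and the length of the transcript, and the oxidant defence genes shared this. Among them Pearson's r of the log2 fold change was 0.64 with GC content and -0.74 with log2 length of the canonical transcript (39 genes from the same 6 libraries, given as a description). The same values over all tested genes with a known canonical transcript were 0.62 and -0.49. Of the 14 genes with a GC content over 55%, 13 were higher and MAFG was lower, whereas of the 16 under 45%, 6 were higher and 8 lower. Over all tested genes the counts were 3413 higher and 448 lower of 4262 above 55%, and 774 higher and 3860 lower of 5132 under 45%. Under 45% the median log2 fold change was -0.25 for the oxidant defence genes and -0.78 for all tested genes, so the former leaned less to lower. For this reason a second log2 fold change, called corrected, is given, in which smooth trends on GC content and length were removed from each sample. What produced the trend was not tested.

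**Figure D1:**
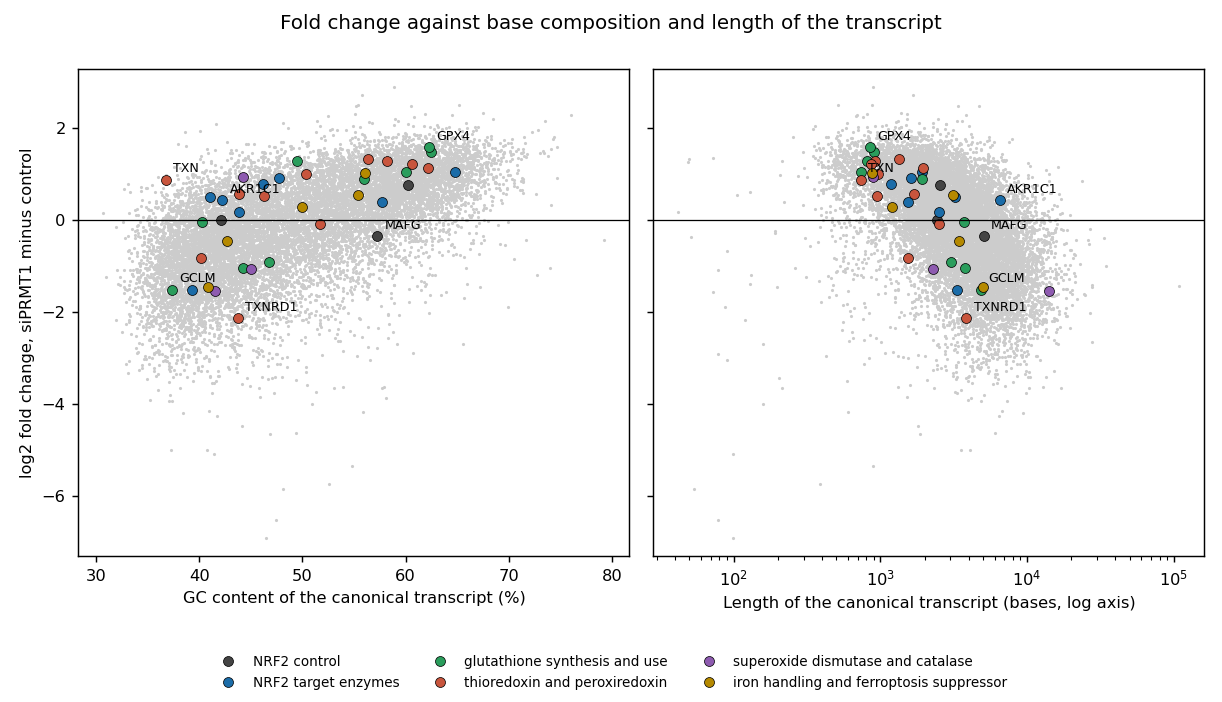
Log2 fold change (siPRMT1 minus control) of each tested gene in grey and of the 39 oxidant defence genes in colour by role, against GC content of the canonical transcript in percent (left) and its length in bases on a log axis (right). GPX4 lies among short GC-rich transcripts at 1.59 and GCLM among AT-rich ones at -1.51, while TXN at 0.89 and AKR1C1 at 0.43 are higher despite GC contents of 36.8% and 42.2%, and MAFG is lower at -0.34 despite 57.3%. By length, TXN (737 bases) and MAFG (5061 bases) lie along the trend and AKR1C1 (6543 bases) lies against it.

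Most of the 39 genes moved, in both directions. After knockdown 25 were higher (64.1%, against 44.3% of all tested genes) and 12 lower (30.8%, against 45.0%). NFE2L2 and GPX8 did not pass. The groups did not overlap for the 37 that passed (89.1% of all tested genes had no overlap). At least 2-fold changes were found for 11 higher genes (28.2% of the 39, against 15.3% of all tested genes) and 7 lower genes (17.9%, against 21.0%). The median log2 fold change was 0.53, beside -0.0082 over all tested genes. With scaling by library size alone 21 were higher and 16 lower, where 33.5% of all tested genes were higher and 55.4% lower. After the correction 20 were higher and 15 lower, where 80.4% of all tested genes passed, 44.9% as higher and 35.5% as lower. The corrected medians were 0.14 for the 39 genes and 0.070 for all genes. At least 2-fold higher were then 3 genes, AKR1C1, AKR1C2 and TXN (5.86% of all tested genes), and at least 2-fold lower 1, TXNRD1 (8.39%). Called in both fits with opposite signs were 5 of the 39, against 16.0% of all tested genes. The 39 genes made up 1.69% to 1.70% of each control library and 1.93% to 1.94% of each siPRMT1 library.

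**Figure D2:**
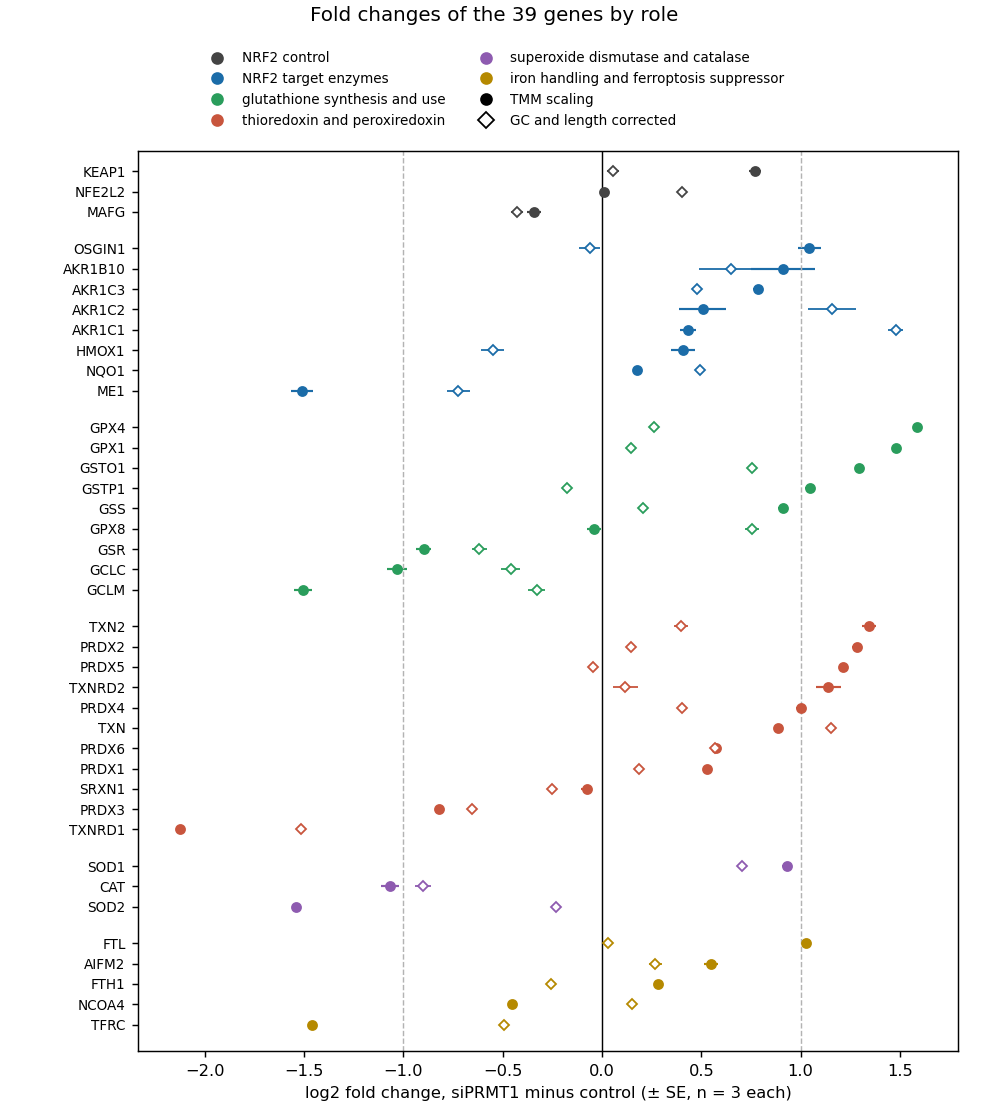
Log2 fold change (siPRMT1 minus control) of each gene by role, filled circles with TMM scaling and open diamonds after the GC and length correction, bars ± SE, n = 3 samples per group, dashed lines at 2-fold. TXNRD1 lies lowest with both values, at -2.13 and -1.52, whereas GPX4 moves from 1.59 to 0.26.

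The RNA of NRF2 itself did not move with TMM scaling, while that of its inhibitor rose. NFE2L2 (ENSG00000116044; hg38, chromosome 2, 177218667 to 177392679, minus strand) stood at 334, 338 and 335 CPM in the control samples and at 344, 335 and 337 CPM in the siPRMT1 samples. The groups overlapped, and the log2 fold change was 0.012 (SE 0.017; edgeR quasi-likelihood, adjusted p = 0.50), but turned to -0.30 when scaled by library size only, and was 0.40 corrected. Exons annotated to NFE2L2 overlap HNRNPA3 on the opposite strand, and the strand setting of the counting was not given in the sources used here, so reads of the 2 genes may not be separated. The same holds for FTH1 with BEST1, PRDX1 with MMACHC and AIFM2 with MACROH2A2. NFE2L2 also shares exon sequence with another gene on its own strand, where a strand setting would not separate the reads. GPX1, SOD2, GCLC, OSGIN1, MAFG and SRXN1 likewise share exon sequence with a gene on their own strand. KEAP1 (ENSG00000079999; chromosome 19, 10486125 to 10503356, minus strand) had 66.7, 71.5 and 72.8 CPM in the controls and 123, 119.5 and 117 CPM after knockdown. Every siPRMT1 sample was above every control, at a log2 fold change of 0.77 (SE 0.031; edgeR quasi-likelihood, adjusted p = 5.51e-91), which came to 0.057 and did not pass after the correction. MAFG, a small MAF partner of NRF2, fell by 0.34 on the log2 scale, and by 0.43 corrected. Counted within each library, where no scaling factor enters, KEAP1 had 0.200, 0.212 and 0.217 reads per NFE2L2 read in the controls and 0.359, 0.357 and 0.347 after knockdown.

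Genes known as NRF2 targets did not move as a block. Of the 8 enzyme and effector targets 7 rose and ME1 fell, beside 44.3% and 45.0% of all tested genes (5 higher and 2 lower corrected, 4 and 2 when scaled by library size only). Among glutathione and thioredoxin genes that NRF2 is also known to induce, GCLM, GCLC, GSR and TXNRD1 fell, SRXN1 fell slightly (-0.077), and TXN and PRDX1 rose. NQO1, the quinone reductase often used as a readout of NRF2, was at 306, 310.0 and 299 CPM in the controls and 352, 337 and 345 CPM after knockdown. This rise of 0.18 (SE 0.018) turned to -0.14 with scaling by library size alone and was 0.49 corrected. HMOX1, the haem oxygenase that frees iron from haem, rose from 18.2 ± 0.613 to 24.2 ± 1.47 CPM, a log2 fold change of 0.41 that turned to -0.55 after the correction. OSGIN1, an oxidative stress response gene, rose by 1.04 (-0.063 corrected, not passed).

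The aldo-keto reductases, which reduce reactive aldehydes, ketones and steroids, were all higher. AKR1C3 rose from 109 ± 1.51 to 187 ± 4.08 CPM (0.79, 0.48 corrected), AKR1C1 from 40.5 ± 0.867 to 54.8 ± 2.36 CPM (0.43, 1.48 corrected), AKR1C2 from 4.51 ± 0.469 to 6.40 ± 0.600 CPM (0.51, 1.16 corrected) and AKR1B10 from 2.13 ± 0.375 to 4.03 ± 0.542 CPM (0.91, 0.65 corrected). The AKR1C genes are similar in sequence, so reads may be split among them and the single values are uncertain. How far this affects each gene was not tested. The correction also rests on the annotated canonical transcript, which is 6543 bases long for AKR1C1 and 1186 for AKR1C3. With scaling by library size alone AKR1C2 and HMOX1 no longer passed (0.19 and 0.090).

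ME1, the cytosolic malic enzyme that makes NADPH (chromosome 6, 83210402 to 83431051, minus strand), went the other way. It had 41.9, 42.2 and 39.1 CPM in the controls and 13.2, 15.4 and 14.5 CPM after knockdown. The groups lay far apart, with a log2 fold change of -1.51 (SE 0.057; edgeR quasi-likelihood, adjusted p = 5.28e-98) and -0.72 corrected.

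The promoters of the 39 genes were searched for the core of the antioxidant response element, TGACNNNGC, on both strands of the 300 bases around each gene start (250 before and 50 after, RefSeq, GRCh38.p14). Of the 39 genes 30 had a promoter in the table, and 8 of these (26.7%) held the core, against 19.1% of 10778 tested genes. With TMM scaling GCLM, ME1, NCOA4 and TXNRD1 were lower after knockdown, and AIFM2, GSTO1, GSTP1 and KEAP1 were higher. After the correction NCOA4 was higher (0.15), GSTP1 was lower (-0.17) and KEAP1 did not pass (0.057). A match describes letters and shows no binding. TXNRD1 held 3 matches, and ME1, KEAP1 and GSTO1 held 2 each. Only 1 match of each gene named below is shown, and those of GSTO1 and NCOA4 are not shown. The following are shown to let the cores of lower and higher genes be compared, each named with its direction under TMM scaling, as 29 bases 5′ to 3′ on the strand of the gene, with the core in capitals (GCNNNGTCA where it lies on the other strand).
TXNRD1, lower, chr12:104215670-104215698, plus strand, core from 99 bases before the start: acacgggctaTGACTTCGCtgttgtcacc
GCLM, lower, chr1:93909446-93909474, minus strand, core from 34 bases before the start: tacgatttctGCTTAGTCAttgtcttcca
ME1, lower, chr6:83431170-83431198, minus strand, core from 137 bases before the start: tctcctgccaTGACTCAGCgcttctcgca
GSTP1, higher, chr11:67583736-67583764, plus strand, core from 66 bases before the start: gccggcgccgTGACTCAGCactggggcgg
KEAP1, higher, chr19:10502784-10502812, minus strand, core from 31 bases before the start: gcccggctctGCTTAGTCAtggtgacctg
AIFM2, higher, chr10:70132829-70132857, minus strand, core from 22 bases before the start: cagcacgagtGCTGAGTCAcgccccgccc
The capitals are the same 9 letters in ME1 and GSTP1, and AIFM2 holds these letters on the other strand. Of these genes ME1 was lower, and GSTP1 and AIFM2 were higher, with TMM scaling. GCLM and KEAP1 also share their letters and changed in opposite directions with TMM scaling. After the correction ME1 (-0.72) and GSTP1 (-0.17) were lower and AIFM2 (0.27) was higher. GCLM was then lower (-0.33), while KEAP1 did not pass (0.057).

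With TMM scaling the first, rate-limiting step of glutathione synthesis and the reductase were lower. The last step of synthesis, the peroxidases GPX1 and GPX4 and the transferases were higher. This division also followed GC content, at 37.3% to 46.7% for the lower genes and 49.4% to 62.4% for the higher ones, and its source was not tested. After the correction GSTP1 was lower (-0.17), GPX1 and GPX4 were at 0.14 and 0.26, and GPX8 was at 0.76. Of 9 genes 5 rose (55.6%, against 44.3% of all tested genes), 3 fell (33.3%, against 45.0%) and GPX8 did not pass. Glutamate-cysteine ligase joins glutamate to cysteine and consists of a catalytic subunit, GCLC, and a modifier subunit, GCLM. GCLM (chromosome 1, 93885199 to 93909430, minus strand) was at 73.2, 69.8 and 70.2 CPM in the controls and at 26.6, 23.8 and 24.8 CPM after knockdown. All siPRMT1 samples lay below all controls, with a log2 fold change of -1.51 (SE 0.044; edgeR quasi-likelihood, adjusted p = 9.33e-135) and -0.33 corrected. GCLC fell from 44.2 ± 0.870 to 21.7 ± 0.823 CPM (-1.03, -0.46 corrected), and the reductase gene GSR, which restores glutathione from its disulfide, fell from 76.6 ± 2.63 to 41.1 ± 1.44 CPM (-0.90, -0.62 corrected). GSS, which adds glycine to complete glutathione, rose from 127 ± 0.954 to 238 ± 2.26 CPM (0.91, 0.20 corrected).

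GPX4, the selenoenzyme that reduces lipid hydroperoxides in membranes and restrains ferroptosis (chromosome 19, 1103982 to 1106779, plus strand), had the highest fold change of the 39 genes. It was at 239, 249 and 255 CPM in the controls and at 742, 748 and 745 CPM in the siPRMT1 samples, 3.01-fold higher with no overlap. The log2 fold change was 1.59 (SE 0.018), higher than that of 97.9% of all tested genes, and 0.26 (SE 0.016) after the correction. GPX1, the main cytosolic glutathione peroxidase, was close behind, with 279, 292 and 293 CPM against 805, 804 and 799 CPM (1.48, SE 0.018; 0.14 corrected). Both transcripts are short and GC-rich, at 851 bases and 62.3% for GPX4 and 899 bases and 62.4% for GPX1. GPX8, a peroxidase of the endoplasmic reticulum with a transcript of 3731 bases and 40.3% GC, stood at 65.2 ± 1.82 and 63.4 ± 1.12 CPM (-0.042; edgeR quasi-likelihood, adjusted p = 0.261; 0.76 corrected).

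The transferase genes, which attach glutathione to electrophiles or use it as a reductant, also rose. GSTO1 (chromosome 10, 104235356 to 104267365, plus strand) had 281, 283 and 285 CPM in the controls and 694, 688 and 699 CPM after knockdown. The samples of the 2 groups were far apart, and the change of 1.29 (SE 0.018; edgeR quasi-likelihood, adjusted p = 1.19e-273) remained 0.76 after the correction. GSTP1 rose from 109 ± 1.59 to 224 ± 5.49 CPM (1.05) but was lower after the correction (-0.17).

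**Figure D3:**
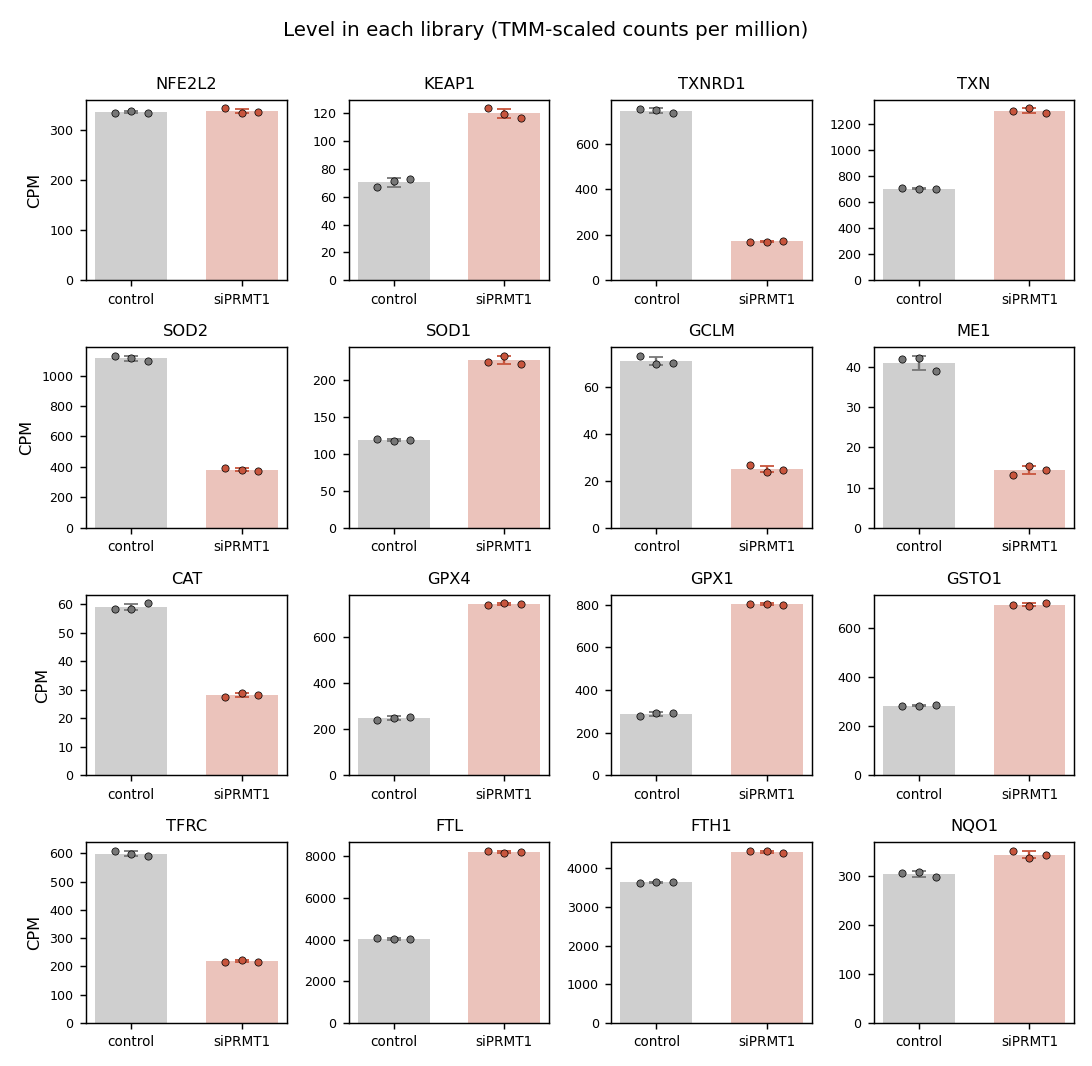
TMM-scaled CPM of 16 of the genes, points for the 3 samples of each group, bars for the mean and error bars for ± SD; each axis starts at 0 and has its own scale. In every panel but NFE2L2 the samples of the 2 groups do not overlap, with TXNRD1 falling from 746 to 171 CPM and GPX4 rising from 248 to 745 CPM on average; the rises of NQO1 and FTH1 turn to falls with scaling by library size alone.

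The largest change of any of the 39 genes was in the thioredoxin system. Thioredoxin reductase passes electrons from NADPH to thioredoxin, which reduces peroxiredoxins and other proteins. TXNRD1, the cytosolic reductase (ENSG00000198431; chromosome 12, 104215779 to 104350274, plus strand), was at 753, 751 and 735 CPM in the controls and at 170.4, 169.8 and 173 CPM after knockdown. It was 4.37-fold lower with no overlap, at a log2 fold change of -2.13 (SE 0.020), and only 4.05% of all tested genes lay lower. The corrected value was -1.52 (SE 0.017). Its substrate gene TXN, with a short and AT-rich transcript (737 bases, 36.8% GC), rose from 709, 701 and 698 CPM to 1300, 1317 and 1283 CPM (0.89, SE 0.016; 1.15 corrected). Within each library there were 0.942, 0.934 and 0.949 TXN reads per TXNRD1 read in the controls and 7.63, 7.75 and 7.44 after knockdown, an 8.08-fold shift. TXN has 7 named pseudogenes in the annotation, so some of its reads may have been assigned elsewhere.

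The mitochondrial pair moved together. TXN2 (chromosome 22, 36467046 to 36481632, minus strand) had 46.5, 44.9 and 48.4 CPM in the controls and 118, 115 and 123 CPM after knockdown (1.34, SE 0.034; edgeR quasi-likelihood, adjusted p = 1.49e-160; 0.40 corrected). TXNRD2 rose from 13.0 ± 0.308 to 28.6 ± 1.49 CPM (1.14; 0.12 corrected, not passed). With TMM scaling the cytosolic reductase was thus lower and the mitochondrial one higher.

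Peroxiredoxins reduce peroxides with electrons from thioredoxin or, for PRDX6, from glutathione. Of their 6 genes 5 rose and PRDX3 fell, where 44.3% of all tested genes were higher and 45.0% lower. PRDX2, abundant in the cytosol, was at 153, 145 and 149 CPM in the controls and 361, 359.9 and 367 CPM after knockdown (1.28, SE 0.021; edgeR quasi-likelihood, adjusted p = 9.08e-242; 0.14 corrected). PRDX5, found in several compartments, had 144, 147 and 146 CPM against 340.3, 333 and 339.6 CPM (1.22, SE 0.021; edgeR quasi-likelihood, adjusted p = 1.83e-227), and was at -0.046 corrected. PRDX4 of the endoplasmic reticulum (1.00, 0.40 corrected), PRDX6 (0.58, 0.57 corrected) and PRDX1 (0.53, 0.19 corrected) rose less. PRDX3, a mitochondrial enzyme, fell from 314 ± 2.72 to 178 ± 0.906 CPM (-0.82, -0.66 corrected). Reads of PRDX5 per PRDX3 read went from 0.464 ± 0.00769 to 1.90 ± 0.0138. SRXN1, the sulfiredoxin that repairs overoxidised peroxiredoxins and a known NRF2 target, changed little, from 131 ± 2.84 to 124 ± 3.04 CPM (-0.077; edgeR quasi-likelihood, adjusted p = 0.00504; -0.25 corrected). Most of the exon sequence of SRXN1 is also annotated to another gene on the same strand, ENSG00000270299, so its reads may not be assigned to it alone. That small difference no longer passed with DESeq2 (adjusted p = 0.0609) or without siPRMT1 replicate 3 (edgeR's adjusted p = 0.0643).

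Superoxide dismutases convert superoxide to hydrogen peroxide, which catalase breaks down. SOD2, the mitochondrial enzyme (ENSG00000291237; chromosome 6, 159669069 to 159762529, minus strand), was at 1126, 1118 and 1095 CPM in the controls and at 391, 379 and 376 CPM after knockdown. The log2 fold change was -1.54 (SE 0.017) and -0.23 corrected, the annotated canonical transcript being 14167 bases long. SOD1, the cytosolic enzyme, rose from 119 ± 1.05 to 227 ± 5.42 CPM (0.93, 0.71 corrected). The controls held 9.36, 9.46 and 9.18 SOD2 reads per SOD1 read and the siPRMT1 samples 1.73, 1.62 and 1.69. CAT, the peroxisomal catalase (chromosome 11, 34438934 to 34472060, plus strand), had 58.5, 58.2 and 60.3 CPM in the controls and 27.4, 28.7 and 28.2 CPM after knockdown. Its log2 fold change of -1.07 (SE 0.045; edgeR quasi-likelihood, adjusted p = 8.75e-86) was nearly as large after the correction (-0.90).

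Iron storage and iron uptake genes moved apart with TMM scaling. Ferritin, built of the chains FTH1 and FTL, stores iron, the transferrin receptor TFRC takes it up, and NCOA4 carries ferritin to lysosomes for breakdown. Per kilobase of gene length FTL and FTH1 had the highest levels of the 39 genes in the controls (1951 and 1818 CPM per kb, against 696 for TXN). Together they made up 0.854% to 0.857% of each control library and 1.13% to 1.14% of each siPRMT1 library. FTL rose from 4062, 4018 and 4002 CPM to 8255, 8176 and 8205 CPM (1.03, SE 0.015), a change that did not pass after the correction (0.029). FTH1 rose from 3623, 3652 and 3653 CPM to 4437, 4441 and 4386 CPM (0.28), a rise that turned to -0.037 when scaled by library size only and to -0.26 corrected. Reads of FTH1 per FTL read fell from 0.905 ± 0.0111 to 0.538 ± 0.00442. The annotation names 25 pseudogenes of FTH1 and 16 of FTL, which makes both values uncertain.

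TFRC (ENSG00000072274; chromosome 3, 196012511 to 196082090, minus strand) was at 609, 597 and 593 CPM in the controls and 216, 223 and 216 CPM after knockdown. It was 2.75-fold lower with no overlap, with a log2 fold change of -1.46 (SE 0.016) and -0.49 corrected. NCOA4 fell from 269 ± 2.09 to 197 ± 3.66 CPM (-0.45) and was higher after the correction (0.15). AIFM2, also known as FSP1, which regenerates reduced ubiquinone and suppresses ferroptosis without glutathione, rose from 53.6 ± 0.877 to 78.5 ± 3.23 CPM (0.55, 0.27 corrected).

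Ferritin and transferrin receptor RNAs are known to carry iron-responsive elements, hairpins bound by the iron regulatory proteins ACO1 and IREB2 when iron is scarce, which blocks ferritin translation and stabilises TFRC RNA. The hairpin was searched in GENCODE canonical transcripts as a bulged C, 5 bases, a loop of CAGTG and 1 base other than G, and 5 bases able to pair with the first 5, G-U pairs allowed. FTH1 and FTL each held 1, in the 5′ UTR, and TFRC held 4, in the 3′ UTR, and none of the other 36 genes held one. Elements that depart from this strict pattern are missed, so the 4 in TFRC may not be all of its elements. Within the first 300 bases, 8 of 13659 canonical transcripts of tested genes held it (0.0586%), and of 1390 within 10% of the TFRC length 20 held at least 1 and 1, TFRC itself, at least 3. Each is shown as 27 bases of the transcript, as DNA letters with the 6 loop bases in capitals, to let the ferritin and receptor elements be compared (hg38).
FTH1, chr11:61967575-61967601, minus strand: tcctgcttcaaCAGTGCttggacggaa
FTL, chr19:48965336-48965362, plus strand: tcttgcttcaaCAGTGTttggacggaa
TFRC, first, chr3:196050980-196051006, minus strand: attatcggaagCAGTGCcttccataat
TFRC, second, chr3:196050576-196050602, minus strand: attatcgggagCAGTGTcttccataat
TFRC, next, chr3:196050511-196050537, minus strand: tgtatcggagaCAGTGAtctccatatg
TFRC, last, chr3:196050464-196050490, minus strand: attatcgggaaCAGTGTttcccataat
Of the genes for the binding proteins, IREB2 fell from 62.1 ± 1.91 to 14.8 ± 1.26 CPM (-2.06, -0.78 corrected), and ACO1 fell from 153 ± 1.87 to 120.3 ± 3.13 CPM (-0.34) and was higher after the correction (0.57). Iron and protein levels were not measured.

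The ratios of partner genes restate these contrasts from the same counts, without any scaling between libraries. All 10 ratios that were computed, chosen after seeing the data, separated the groups completely. Each gave p = 0.1 in a two-sided exact permutation test, the smallest that 3 against 3 samples allow (Benjamini-Hochberg adjusted p = 0.1 by the same exact test). That value follows from complete separation, and 89.1% of all tested genes separated the groups on their own. The test therefore adds no support. A ratio shows unequal change of the 2 genes and still holds any difference in GC content and length between them.

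**Figure D4:**
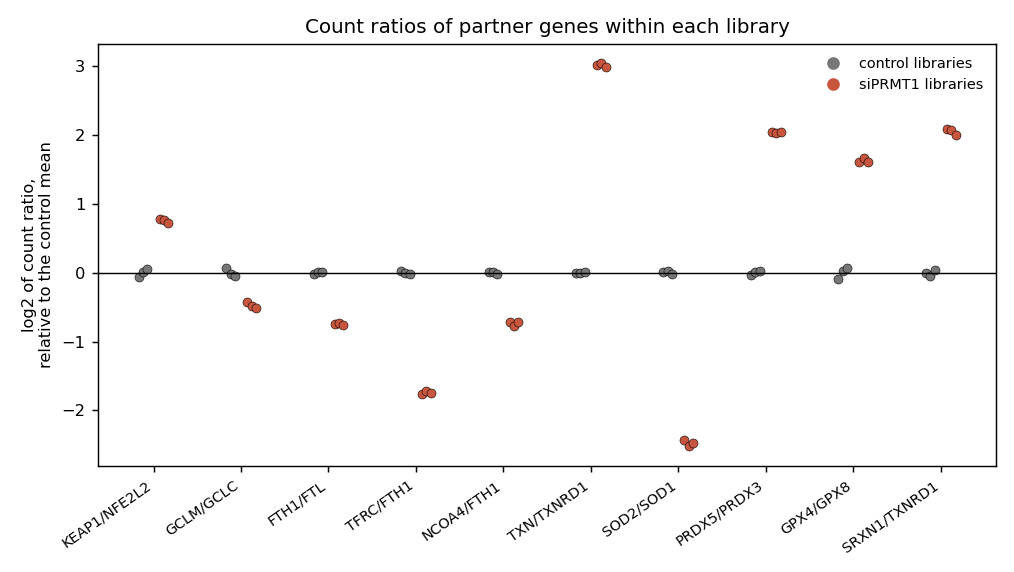
Log2 of the ratio of read counts of 2 genes in each library, relative to the mean ratio of the 3 control libraries (grey) with the siPRMT1 libraries in red. TXN per TXNRD1 moves furthest up (8.08-fold) and SOD2 per SOD1 furthest down (5.55-fold), with the libraries of each group close together.

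Other genes of the same pathways, taken from lists by known role and with none of the 39 among them, likewise moved both ways. Of 124 tested genes 67 were higher (54.0%, against 44.3% of all tested genes) and 47 lower (37.9%, against 45.0%). The median was 0.25 (0.13 corrected). At least 2-fold higher were 18 (14.5%, against 15.3%) and at least 2-fold lower 14 (11.3%, against 21.0%). Counts of each list below stand beside the same all-gene shares, which were 44.9% and 35.5% corrected and 33.5% and 55.4% with library size alone. No list was tested. Among 12 other regulators of NRF2 6 were higher and 5 lower (3 and 8 corrected; 2 and 8 with scaling by library size alone). The lowest was BACH1, the repressor that competes with NRF2 for the same elements, which fell from 56.4 ± 1.71 to 8.01 ± 0.784 CPM (-2.81, SE 0.061; edgeR quasi-likelihood, adjusted p = 2.95e-185; -1.60 corrected). PALB2, a DNA repair protein that binds KEAP1, fell as well (-1.18, -0.49 corrected), while the ubiquitin ligase gene TRIM21 (0.82, 0.48 corrected) and DPP3 (0.49; -0.094 corrected), whose product binds KEAP1, rose. CUL3, the scaffold of the ligase that KEAP1 directs to NRF2, did not pass (0.048; 1.41 corrected).

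Of 19 tested other NRF2 targets 9 were higher and 9 lower (47.4% each, near the 44.3% and 45.0% of all tested genes). SLC7A11, the cystine carrier that supplies cysteine for glutathione, fell from 60.2 ± 2.46 to 13.2 ± 1.69 CPM (-2.20, -0.54 corrected), and UGDH, which makes UDP-glucuronate, by 1.55 (-0.84 corrected). The biliverdin reductase gene BLVRB rose by 1.33 (0.052 corrected, not passed). Of 24 other glutathione genes 19 were higher and 3 lower (79.2% and 12.5%), with a median of 0.83. After the correction 11 were higher and 3 lower, with a median of 0.12. Among them SLC3A2, the partner chain of SLC7A11, rose by 0.82 (-0.021 corrected, not passed). The extracellular peroxidase gene GPX3 rose from 122 ± 0.721 to 282 ± 3.53 CPM (1.21, 0.40 corrected) and the microsomal transferase gene MGST2 by 1.11 (0.84 corrected). GSTCD fell (-2.26, -1.38 corrected), and so did GLO1, the glyoxalase that uses glutathione to clear methylglyoxal (-0.096), which was higher after the correction (0.30).

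Among 20 other thioredoxin and glutaredoxin genes 12 were higher and 6 lower (60% and 30%, against 44.3% and 45.0% of all tested genes). Corrected counts were 14 and 2. NNT, the mitochondrial transhydrogenase that makes NADPH, fell from 92.7 ± 2.04 to 24.7 ± 0.854 CPM (-1.91, -0.73 corrected), and the methionine sulfoxide reductase gene MSRB3 fell by 0.33 but was higher after the correction (0.35). MSRB1, a selenoprotein of the same class, rose by 1.40 (0.35 corrected) and the sestrin gene SESN2 by 1.28 (0.81 corrected). Of 16 tested other iron genes 5 were higher and 10 lower (31.25% and 62.5%), but 12 higher and 3 lower after the correction. Besides IREB2, the metal importer gene SLC39A14 fell (-1.67, -1.15 corrected), while the mitochondrial iron carrier gene SLC25A28 (1.67, 0.61 corrected) and HMOX2, the constitutive haem oxygenase (1.29, 0.41 corrected), rose.

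Among 20 tested other ferroptosis genes 10 were higher and 8 lower (50% and 40%, near the 44.3% and 45.0% of all tested genes). ACSL4, which loads polyunsaturated fatty acids for the phospholipids that are oxidised in ferroptosis, fell from 133 ± 2.90 to 25.3 ± 0.343 CPM (-2.39, SE 0.039; edgeR quasi-likelihood, adjusted p = 1.83e-243; -1.15 corrected). SCD, which makes the monounsaturated fatty acids that protect from it, fell from 575 ± 4.32 to 148 ± 0.743 CPM (-1.96, -1.29 corrected). POR, an oxidoreductase that can start lipid peroxidation, rose from 47.4 ± 1.79 to 106 ± 0.328 CPM (1.16, 0.37 corrected), and SPR, which makes tetrahydrobiopterin, rose by 0.65 but was lower after the correction (-0.43). Of 13 genes of selenoprotein synthesis and other selenoproteins 6 were higher and 6 lower (46.2% each, near the all-gene shares). Corrected counts were 5 and 2. EEFSEC, the elongation factor for selenocysteine (1.32, 0.45 corrected), and SELENOW (1.17, 0.17 corrected) rose, and SECISBP2, which binds the selenocysteine insertion element (-0.92, -0.50 corrected), and SELENOF (-0.90, -0.41 corrected) fell.

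**Figure D5:**
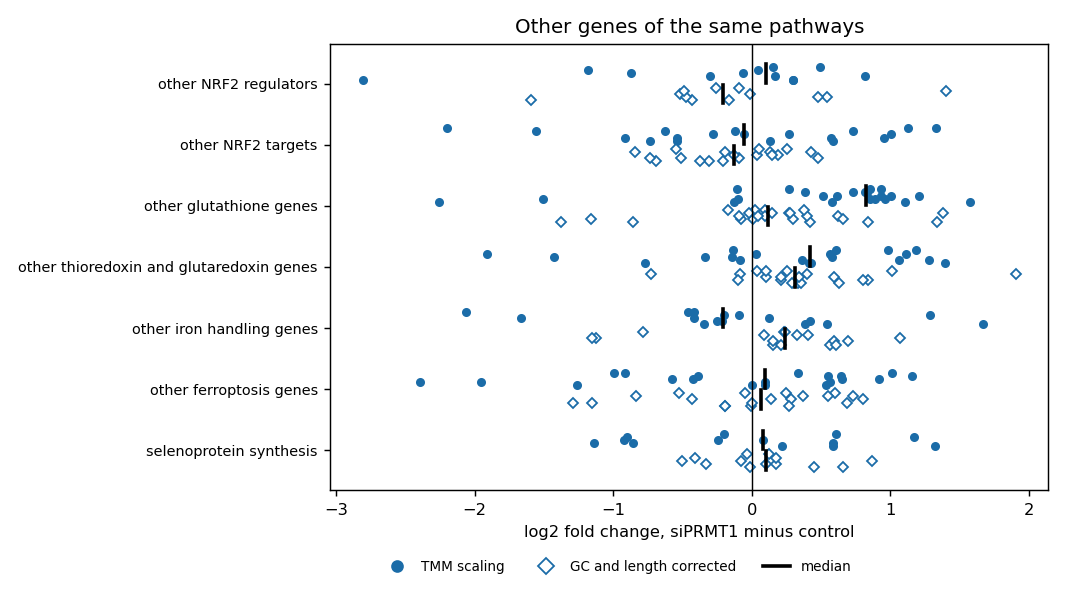
Log2 fold change (siPRMT1 minus control) of each tested gene in 7 lists of other pathway genes, filled circles with TMM scaling and open diamonds after the GC and length correction, with the median of each as a black bar; the vertical spread within a row carries no value. Points lie on both sides of 0 in every list, and the median of the other glutathione genes moves from 0.83 to 0.12 with the correction.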

How the data were processed

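RNA from 3 control and 3 siPRMT1 samples of MDA-MB-231 M3 cells was sequenced with a stranded mRNA kit, per the labels' protocols. The authors deposited 1 table of read counts per gene, not normalized, with identifiers, symbols, coordinates and a gene length in bases, per the file headers. The submitters' processing notes list STAR 2.7.6a, edgeR 3.40.2, fastp 0.23.2, Subread 1.5.1 and featureCounts, with the build hg38. Strand setting and annotation release were not given in the sources used here. From the counts, edgeR 4.0.16 in R 4.3.3 was run on all genes (filterByExpr, TMM, glmQLFit and glmQLFTest, two-sided, Benjamini-Hochberg adjustment over 13710 genes, threshold 0.05); fold changes are siPRMT1 minus control and the SE is the fold change divided by the square root of F. Adjusted p-values of TXNRD1, TFRC, SOD2, GPX1, GPX4 and SCD were too small to print. The correction removed splines (5 degrees of freedom each) on GC content and log length of the GENCODE release 44 canonical transcript, known for 13694 tested genes, as per-sample offsets. Replicates differed beyond sampling noise (chi-square over degrees of freedom from 1.05 to 1.38), so each was used. The edgeR common dispersion, 9.77e-05, is very small. Per-library values and full statistics go to NFE2L2, KEAP1, the 6 highest and 6 lowest of the genes past the threshold and the largest change in each role, with others added where a comparison needed them; other pathway lists give up to 2 genes each way (1 such gene is not reported here) with at least 10 CPM and no overlap, plus CUL3, SLC3A2 and ACO1, chosen after their values were seen. The genes, lists and rule were chosen with earlier results of these data known. The scripts were tested on simulated data. Motifs were searched with Python 3.11.15.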

Additional observations from a re-analysis of the deposited data

How the results depend on the processing

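The calls rest on libraries of 16968563 to 20545995 counts and on a spread between samples that may be technical. Leaving out 1 sample at a time gave 25 higher each time and between 11 and 12 lower genes of the 39, and a median log2 fold change between 0.53 and 0.56. With the replicate number as a block (replicate block) 25 were higher and 12 lower and no call on the 39 genes changed; same-numbered samples did not deviate together (r from -0.027 to -0.010 over 6016 genes). Of the at least 2-fold higher genes, 11 in number, 7 were left with upper-quartile scaling and 3 with scaling by library size alone, where the median was 0.48 and 0.21; without the filter on low counts it was 0.52. After the GC and length correction 3 were at least 2-fold higher and 1 lower with a median of 0.14, both without and with the replicate block. FTL, at 0.029 in both of these fits, did not pass without the block (edgeR's adjusted p = 0.335) and passed with it (edgeR's adjusted p = 0.0455). Tested against a 2-fold change with glmTreat, 4111 genes passed, 9 of the 39 higher and 5 lower, since that test asks for more. Direction turned for NFE2L2 (-0.30), NQO1 (-0.14) and FTH1 (-0.037) with library size alone, and for NFE2L2 also with upper-quartile scaling (-0.035) and without the filter (-0.00049), neither past the threshold. It also turned with the correction for HMOX1 (-0.55), OSGIN1 (-0.063; -0.065 with the replicate block), GPX8 (0.76), GSTP1 (-0.17; -0.18 with the block), PRDX5 (-0.046), FTH1 (-0.26) and NCOA4 (0.15); the cause was not tested. RLE size factors and a filter of at least 1 CPM in 3 samples changed no call on the 39 genes, and DESeq2 changed that of SRXN1.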
